A study of Rattus norvegicus with 6 samples.

Results

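Transcripts that mark red blood cells, vascular endothelium and leukocytes were followed in 6 rat RNA-seq libraries. The set holds 31 genes, matched by symbol, of the 31011 genes in the count files. Of these, 6 are erythroid, 13 endothelial and 12 leukocyte genes, and all 31 had at least 1 count. Of the libraries, 3 are labelled as transfected with an siRNA against eIF3m (si-eIF3m) and 3 with a control siRNA. eIF3m is a subunit of translation initiation factor 3, the complex that helps to place the small ribosomal subunit on mRNA. In every library the cells are labelled as myocardial cells and NRVM, and the growth text names the heart muscle of rat embryos as their origin. The labels give no strain, sex or time after transfection, and nothing in them says that replicates came from separate cultures. The p-values below therefore rest on a spread between libraries that may be technical.

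Red blood cells are filled with haemoglobin, a complex of alpha and beta globin chains around haem, and their globin mRNA is so abundant that a trace of blood is readily seen in RNA from other tissues. Endothelial cells line blood vessels, and they are known by receptors for vascular growth factors and angiopoietins, by junction proteins and by von Willebrand factor. Leukocytes carry the CD45 phosphatase, and tissue macrophages add scavenger receptors, complement C1q and the machinery of antigen presentation. Such markers are used to look for RNA of cell types other than cardiac muscle in cultures made from the heart.

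To show the sequences from which such markers are transcribed, the RefSeq promoters (assembly GRCr8, 250 bases before to 50 after the start of the gene) of 4 members from the 3 classes are printed here. A promoter was found for 21 of the 31 members. Capitals mark matches, on either strand, to AGATAA, the core bound by GATA factors, or to CCNCNCCC, bound by Krüppel-like factors, in the erythroid genes. In the other genes they mark AGGAAG, a core bound by ETS factors.
Hbb, chr1:167663672-167663971, minus strand: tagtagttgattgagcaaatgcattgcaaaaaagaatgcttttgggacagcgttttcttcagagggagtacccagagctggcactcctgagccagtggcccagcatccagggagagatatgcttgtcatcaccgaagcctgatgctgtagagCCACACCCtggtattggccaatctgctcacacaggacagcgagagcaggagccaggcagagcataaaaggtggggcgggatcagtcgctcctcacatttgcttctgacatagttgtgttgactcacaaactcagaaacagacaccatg
Alas2, chrX:22895200-22895499, plus strand: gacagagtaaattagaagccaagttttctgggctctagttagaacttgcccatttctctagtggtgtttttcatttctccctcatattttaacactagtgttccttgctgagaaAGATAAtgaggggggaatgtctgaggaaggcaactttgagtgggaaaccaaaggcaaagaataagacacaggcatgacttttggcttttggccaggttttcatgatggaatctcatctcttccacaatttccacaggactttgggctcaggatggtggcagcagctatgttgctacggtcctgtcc
Tie1, chr5:137304932-137305231, minus strand: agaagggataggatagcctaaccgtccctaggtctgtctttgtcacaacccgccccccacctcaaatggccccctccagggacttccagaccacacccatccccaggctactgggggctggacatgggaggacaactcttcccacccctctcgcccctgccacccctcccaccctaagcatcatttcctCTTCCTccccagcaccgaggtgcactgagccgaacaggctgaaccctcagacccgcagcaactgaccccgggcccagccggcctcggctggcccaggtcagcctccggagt
Ptprc, chr13:52259697-52259996, minus strand: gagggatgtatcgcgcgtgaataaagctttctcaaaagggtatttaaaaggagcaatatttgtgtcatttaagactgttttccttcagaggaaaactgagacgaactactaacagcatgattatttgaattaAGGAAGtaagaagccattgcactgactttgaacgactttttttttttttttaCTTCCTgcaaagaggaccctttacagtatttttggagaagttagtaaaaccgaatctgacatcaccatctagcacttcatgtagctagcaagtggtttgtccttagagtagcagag
Hbb, beta globin, held CCACACCC with its first base 98 bases before the start, and Alas2, the first enzyme of haem synthesis in red cells, held AGATAA at 136 bases before it. Tie1, an endothelial receptor of the angiopoietin system, held the ETS core on the reverse strand at 61 bases before the start. Ptprc, which encodes CD45, held it at 118 bases before the start and, on the reverse strand, at 66. These letters are common. Among 33469 RefSeq promoters of this length, 34.5% held AGGAAG, 46.3% CCNCNCCC and 11.6% AGATAA, against 15, 11 and 2 of the 22 promoters of members (1 member has 2 promoters in the table). A match describes the letters of the window and nothing more.

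Library totals spanned 2156186 (replicate 2) to 10061575 counts (replicate 1) in the eIF3m group and 7437285 to 8603602 counts in the control group. Eif3m itself, the targeted gene, stood at 91.5, 83.9 and 87.3 CPM (counts per 1000000 counts of the library, scaled with TMM factors) in the eIF3m libraries, against 137.3, 135.6 and 140.7 CPM in the controls, with no overlap. Among markers of cardiac muscle, the ventricular and atrial myosin genes Myh7, Myl2, Myl3 and Myl7 had 0 to 4 counts in every library, Myh6 0 to 11 and Ryr2 2 to 5. Tnnt2, cardiac troponin T, had 1660, 351 and 1187 counts in the eIF3m libraries and 2655, 2814 and 2943 in the controls. Of the 18 genes of the cardiac list, 13 had at most 20 counts in every library, and the other 5 had more in at least 1. Besides Tnnt2 these included Pln, a regulator of the calcium pump, at 2.28, 4.86 and 2.88 CPM in the eIF3m libraries and 22.9, 24.9 and 27.2 CPM in the controls. Ttn, titin, stood at 8.76, 11.9 and 6.72 CPM in the eIF3m libraries and 20.1, 22.1 and 28.7 CPM in the controls. The cardiac transcription factors Nkx2-5 and Gata4 were at 17.6 to 23.8 and 6.18 to 12.8 CPM over the 6 libraries, with overlapping groups. eIF3m replicate 1 stood apart from the other 5 libraries. Thinned to 2151671 counts each, it had 16550 genes with at least 1 count, against 15620 and 15725 in eIF3m replicates 2 and 3 and 15199 to 15224 in the controls.

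The members set eIF3m replicate 1 apart. In that library 26 of the 31 members had a CPM at least 2 times the highest of the other 5 libraries, as did 3.46% of the 16400 genes with at least 10 counts in total. They were 5 of the 6 erythroid, 11 of the 13 endothelial and 10 of the 12 leukocyte members. Many members were at 0 or a few counts elsewhere, where the ratio is loose. With every other library set to at least 3 counts, 17 members remained (5 erythroid, 8 endothelial and 4 leukocyte), against 1.35% of those genes. Of the 17 members with at least 10 counts in the other 5 libraries, 12 were at least 2 times the highest, against 1.11% of the 15359 genes so filtered. At 4 times the highest, with no floor, 18 members and 1.99% of those genes qualified. In each of the other 5 libraries, set against the remaining ones by the 2-fold rule with no floor, 0 members and 0.311% to 1.49% of genes qualified. The remaining ones include eIF3m replicate 1, so for the 27 members highest in that library the 0 was fixed in advance. eIF3m replicate 1 was singled out because of its values, so these counts are a description and carry no test. In bulk RNA, more cells of a type and more RNA per cell cannot be told apart.

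**Figure D1:**
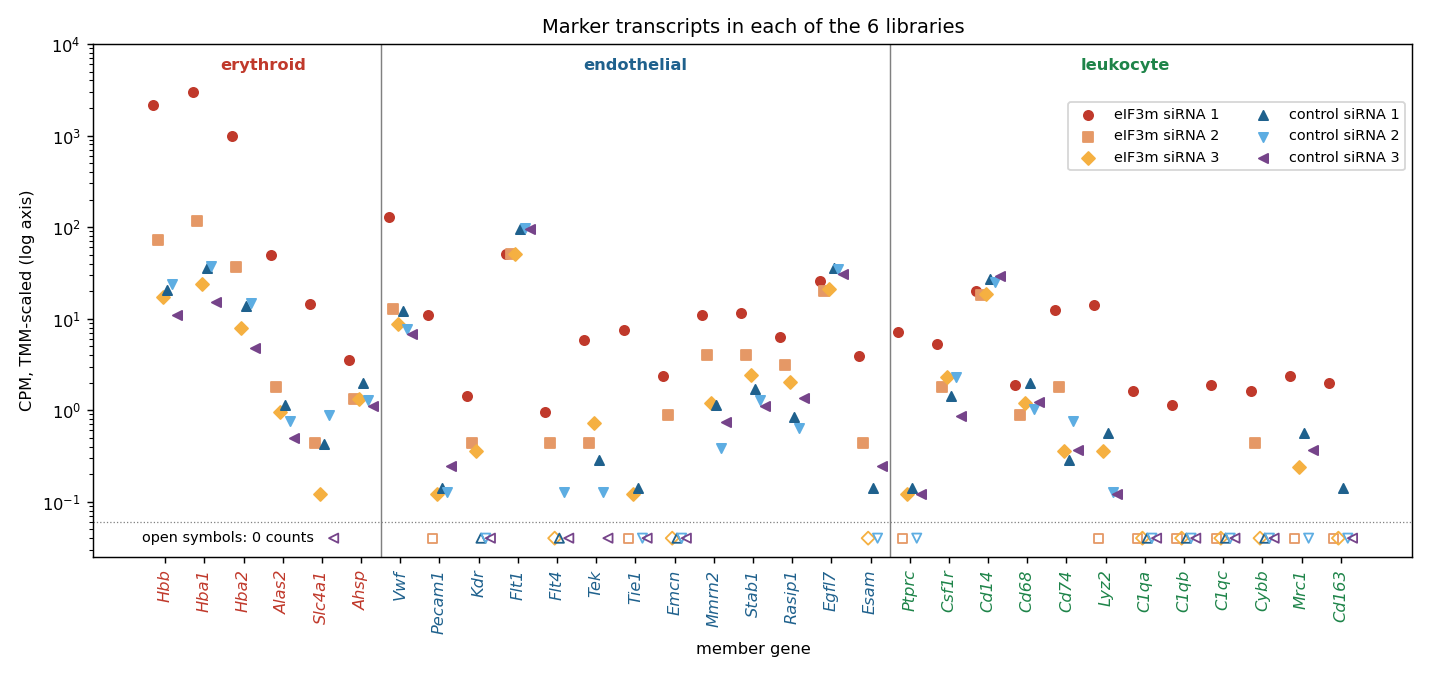
CPM (TMM-scaled, log axis) of each of the 31 members in the 3 eIF3m siRNA and 3 control siRNA libraries, grouped by class, with open symbols for libraries with 0 counts. eIF3m replicate 1 lies above the other 5 libraries for 27 of the members, while for Flt1, Egfl7 and Cd14 all 3 eIF3m libraries lie below the controls.

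The globins had the highest counts of the members in eIF3m replicate 1. Hbb, beta globin, had 22410, 165 and 145 counts in eIF3m replicates 1, 2 and 3, against 145, 187 and 89 in control replicates 1, 2 and 3. This amounted to 2133, 72.9 and 17.4 CPM in the eIF3m libraries and 20.5, 23.9 and 10.9 CPM in the controls. Replicate 1 was thus 29.3 times the next library, eIF3m replicate 2 (95% counting interval 25.1 to 34.3). The alpha globins followed the same order, with 3015, 117.5 and 24.1 CPM of Hba1 in the eIF3m libraries and 36.0, 37.4 and 15.2 in the controls. Hba2 stood at 989.8, 36.7 and 7.92 CPM in the eIF3m libraries and at 13.6, 14.9 and 4.80 in the controls. Hba1 and Hba2 are near-identical copies, so the split of reads between them is uncertain. Together the 3 globins took 0.642% of the counts of eIF3m replicate 1, against 0.00294% to 0.0239% in the other 5 libraries.

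Genes that serve the red cell besides the globins behaved alike, except for Ahsp. Alas2 had 523, 4 and 8 counts in the eIF3m libraries and 8, 6 and 4 in the controls, which put replicate 1 at 28.2 times the next library (10.9 to 103.8). Slc4a1, the band 3 anion exchanger of the red cell membrane, had 152, 1 and 1 counts in the eIF3m libraries and 3, 7 and 0 in the controls (16.2 times, 7.67 to 40.9). Both were at 8 counts or fewer outside replicate 1. Ahsp, a chaperone that stabilises free alpha globin, had 37, 3 and 11 counts in the eIF3m libraries and 14, 10 and 9 in the controls. Its CPM in replicate 1 was 1.78 times the next library (0.938 to 3.56), so it lay within counting error of it.

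Within each library the globins kept similar proportions. Hbb had 0.707 counts per Hba1 count in eIF3m replicate 1 (95% interval 0.695 to 0.720), and 0.620 and 0.721 in eIF3m replicates 2 and 3. In the controls it had 0.571, 0.638 and 0.718, each with an interval that included 0.707 except control replicate 1 (0.462 to 0.703). Hba2 had 0.328, 0.312 and 0.328 counts per Hba1 count in the eIF3m libraries and 0.378, 0.399 and 0.315 in the controls. The globin counts of the other 5 libraries did not follow their totals. The 3 globins summed to 64494, 514 and 412 counts in eIF3m replicates 1, 2 and 3, and to 495, 597 and 252 in the controls. The smallest library, eIF3m replicate 2, held more globin counts than eIF3m replicate 3 and control replicates 1 and 3, all of which had larger totals. For Hba1 the counts of the 5 libraries were 0.391% to 0.925% of those of eIF3m replicate 1. What these 5 small counts came from was not tested.

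**Figure D2:**
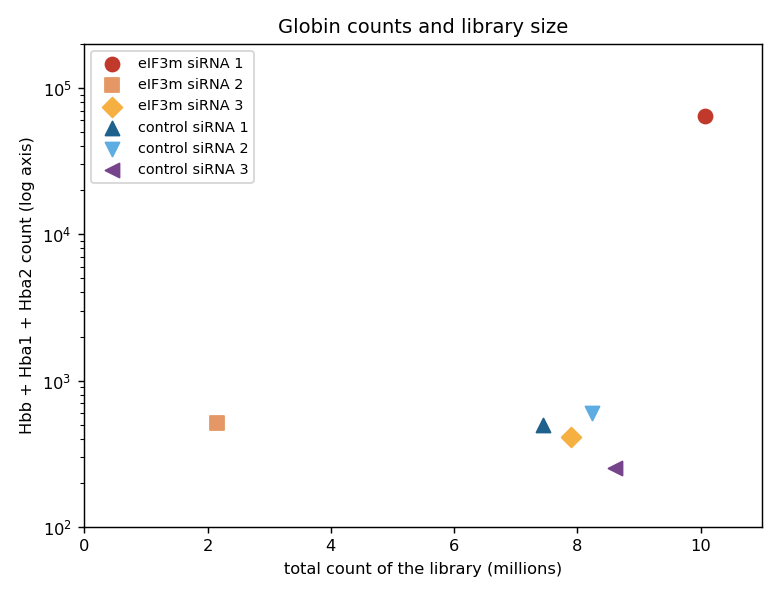
Summed counts of Hbb, Hba1 and Hba2 (log axis) against the total count of each library. eIF3m replicate 1 stands at 64494 counts, and the other 5 libraries lie between 252 and 597 counts whatever their size.

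Among endothelial members, Vwf had the highest counts in eIF3m replicate 1 of those that set it apart. Vwf, which encodes von Willebrand factor, a carrier and platelet-binding protein made by endothelium and megakaryocytes, stood at 128.4, 12.8 and 8.64 CPM in the eIF3m libraries and at 12.2, 7.79 and 6.76 CPM in the controls. Replicate 1 was 10.0 times the next library (6.95 to 15.0), and the other 5 libraries overlapped. Pecam1, the junction protein CD31, had 116, 0 and 1 counts in the eIF3m libraries and 1, 1 and 2 in the controls. Esam, another adhesion molecule of endothelial junctions, had 41, 1 and 0 counts in the eIF3m libraries and 1, 0 and 2 in the controls. Both were near absence in 5 of 6 libraries.

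The angiopoietin receptors and 2 of the 3 receptors for vascular endothelial growth factor shared this pattern. Tie1 had 78, 0 and 1 counts in the eIF3m libraries and 1, 0 and 0 in the controls. Tek, the angiopoietin receptor Tie2, had 61, 1 and 6 counts in the eIF3m libraries and 2, 1 and 0 in the controls, and replicate 1 was 8.07 times eIF3m replicate 3, the next library (3.50 to 22.8). Kdr, the main signalling receptor for the growth factor, had 15, 1 and 3 counts in the eIF3m libraries and 0 in each control. Flt4, the receptor linked to lymphatic vessels, had 10, 1 and 0 counts in the eIF3m libraries and 0, 1 and 0 in the controls. For Kdr and Flt4 the counting intervals of the ratio to eIF3m replicate 2 included 1 (0.497 to 136.1 and 0.307 to 93.5), so at the depth of that library no difference was detectable.

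Of the remaining endothelial members, Emcn, a sialoglycoprotein of capillaries and veins, had 25, 2 and 0 counts in the eIF3m libraries and 0 in each control. Its ratio to eIF3m replicate 2 was 2.69 (0.672 to 23.5), so no difference from that library was detectable. Mmrn2, an endothelial matrix protein, Stab1, a scavenger receptor of sinusoidal endothelium and macrophages, and Rasip1, a Ras-binding protein needed for vessel lumens, were graded. Mmrn2 stood at 10.9, 3.97 and 1.20 CPM in the eIF3m libraries and at 1.13, 0.383 and 0.738 in the controls. Stab1 stood at 11.5, 3.97 and 2.40 CPM in the eIF3m libraries and at 1.70, 1.28 and 1.11 in the controls. For Rasip1 the values were 6.38, 3.09 and 2.04 CPM in the eIF3m libraries and 0.849, 0.639 and 1.35 in the controls. In all 3 the groups did not overlap, with eIF3m replicates 2 and 3 between replicate 1 and the controls. For Mmrn2 this rests on 1.20 CPM (10 counts) in eIF3m replicate 3 against 1.13 CPM (8 counts) in control replicate 1, too few counts to tell apart. How many of all genes had groups without overlap was not counted. In eIF3m replicate 2 these values rest on 7 to 9 counts. Rasip1, at 2.06 times the next library (0.948 to 5.33), was the member closest above the 2-fold line, and Ahsp, at 1.78, the closest below it.

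The leukocyte members were at lower counts, and 10 of the 12 had the same shape, 4 of them also with the other libraries set to at least 3 counts. Ptprc had 75, 0 and 1 counts in the eIF3m libraries and 1, 0 and 1 in the controls. Lyz2, the lysozyme of macrophages and granulocytes, had 148, 0 and 3 counts in the eIF3m libraries and 4, 1 and 1 in the controls, which is 24.9 times the next library (9.51 to 92.5). Cd74, the invariant chain that guides MHC class II molecules, had 131, 4 and 3 counts in the eIF3m libraries and 2, 6 and 3 in the controls (7.06 times, 2.69 to 26.3). All 3 had their only sizeable counts in replicate 1. C1qa, C1qb and C1qc, the chains of the first complement component, had 17, 12 and 20 counts in that library and 0 in each of the other 5. Against the floor of 3 counts per library this put C1qa at least 4.50-fold, C1qb at least 3.17-fold and C1qc at least 5.29-fold higher than eIF3m replicate 3. Against the shallow eIF3m replicate 2 the bounds were only 1.22 for C1qa and 1.44 for C1qc, and for C1qb, at 0.862, no difference was detectable.

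The macrophage receptors were sparse. Cd163, a scavenger receptor for haemoglobin bound to haptoglobin, had 21 counts in eIF3m replicate 1, 0 in eIF3m replicates 2 and 3, and 1, 0 and 0 in the controls. Mrc1, the mannose receptor, had 25, 0 and 2 counts in the eIF3m libraries and 4, 0 and 3 in the controls. Cybb, the catalytic subunit of the phagocyte NADPH oxidase, had 17, 1 and 0 counts in the eIF3m libraries and 0 in each control. Its ratio to eIF3m replicate 2 was 3.66 (0.574 to 153.1), so no difference from that library was detectable. Csf1r, the receptor for macrophage colony-stimulating factor, was less separated, at 5.23, 1.77 and 2.28 CPM in the eIF3m libraries and 1.42, 2.30 and 0.861 CPM in the controls. Its replicate 1 was 2.28 times the next library (1.32 to 4.12), and the other 5 libraries overlapped. Of the 23 raised members with a count in another library, 18 had a ratio whose counting interval lay above 1. Intervals cover counting error only, and floors cover that of the other libraries but not of replicate 1.

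**Figure D3:**
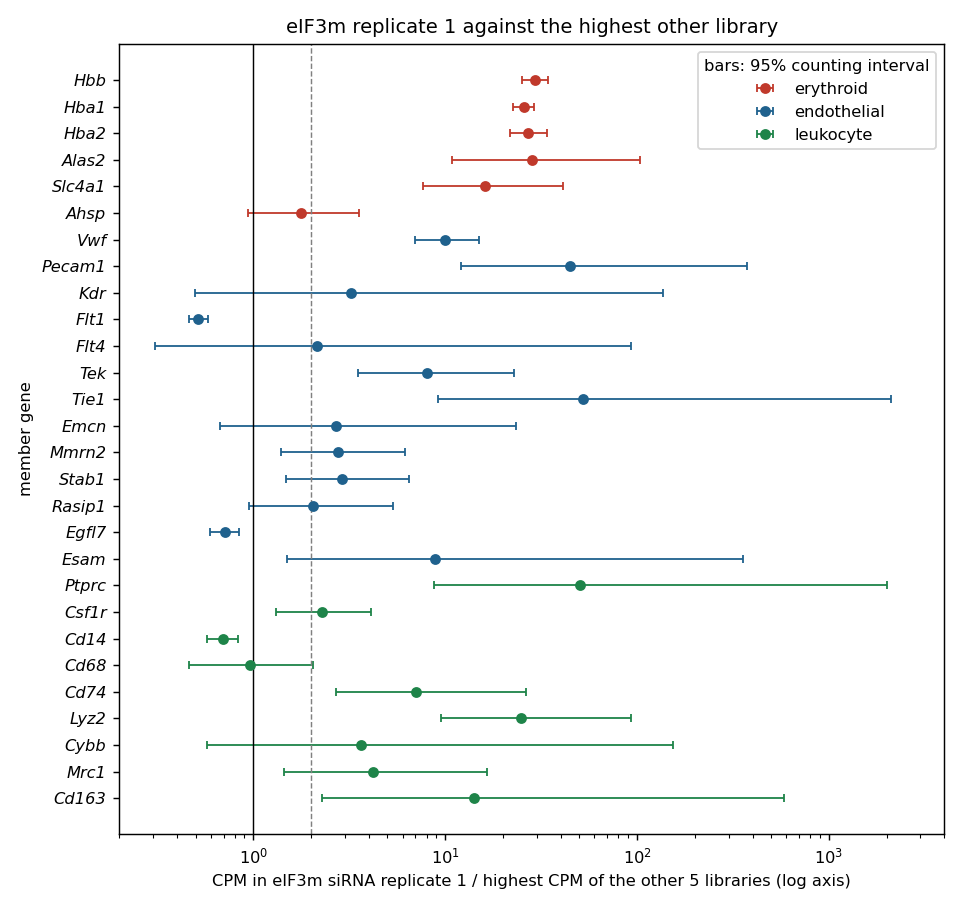
Ratio of the CPM in eIF3m siRNA replicate 1 to the highest CPM among the other 5 libraries (log axis), with 95% counting intervals, for the 28 members with a count outside replicate 1. The dashed line is 2-fold and the solid line 1. The globins and Alas2 lie between 25.7 and 29.3, and Flt1, Egfl7, Cd14 and Cd68 lie below 1.

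Set against the controls as a group, the members gave calls of both signs. The edgeR quasi-likelihood test kept 13 of the 31 members after its filter on low counts, and 8 passed toward higher and 3 toward lower values (adjusted p under 0.05 over all genes tested). Among all 12724 genes tested, 17.4% passed toward higher and 21.2% toward lower values. The 18 members that were not tested had too few libraries with enough counts, and they include Alas2, Pecam1, Lyz2 and Cd74. The median log2 fold change of the 13 was 2.08, against 0.01 over all genes tested. Without eIF3m replicate 1 it was 0.49, and 0 members passed toward higher and 3 toward lower values, against 15.0% and 19.1% of 12925 genes. In that fit 5 of the 13 members had an unadjusted p under 0.05 toward higher values, as did 2576 of the 12925 genes. DESeq2 on the same 5 libraries also called 0 members higher and 3 lower, against 1108 and 1800 of the 12925 genes. It gave no adjusted p for 5 of the 13 members, though each had an unadjusted p.

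Every call toward higher values was lost without that library. That fit rests on eIF3m replicates 2 and 3 alone in the eIF3m group, so a call lost there does not show that there is no difference. Hbb averaged 741.0 ± 1205 CPM in eIF3m libraries and 18.5 ± 6.71 CPM in controls (SD, n = 3 each). Its log2 fold change was 5.36 ± 1.20 SE (adjusted p = 0.00233), and 0.97 ± 0.38 without replicate 1 (adjusted p = 0.0539). Hba1 and Hba2 were at 5.18 ± 1.18 and 5.04 ± 1.18 SE, and at 0.87 and 0.64 without it. Vwf averaged 49.9 ± 68.0 CPM in eIF3m libraries and 8.91 ± 2.87 in controls, a log2 fold change of 2.74 ± 0.72 SE (adjusted p = 0.00737) that stood at 0.17 ± 0.25 without it. Of the graded genes, Mmrn2 was at 2.94 ± 0.67 SE, Stab1 at 2.26 ± 0.51 and Rasip1 at 2.08 ± 0.47, and without replicate 1 at 1.42 ± 0.66, 1.09 ± 0.47 and 1.29 ± 0.53 (adjusted p = 0.107, 0.0792 and 0.0676). Csf1r passed narrowly (1.18 ± 0.44 SE, adjusted p = 0.0467). It missed the threshold when control replicate 1 (adjusted p = 0.133) or control replicate 3 (0.199) was left out, and it was at 0.49 ± 0.50 without eIF3m replicate 1. With a dispersion estimated robustly, Rasip1 and Csf1r alone of the 8 passed, and the others were at adjusted p = 0.0518 to 0.199. DESeq2 on all 6 libraries called Mmrn2, Stab1 and Rasip1. For the 3 globins and Vwf it gave neither an unadjusted nor an adjusted p, so it made no call on them in either direction.

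The 3 members that fell did so alike in all eIF3m libraries. Flt1, a receptor for vascular endothelial growth factor that also exists as a soluble trap, stood at 50.7, 50.3 and 51.3 CPM in eIF3m replicates 1, 2 and 3 and at 94.8, 98.1 and 95.3 CPM in the controls. It fell by 0.91 ± 0.05 SE on the log2 scale (adjusted p = 2.95e-09), and by 0.91 ± 0.07 without replicate 1. Egfl7, a secreted protein of vascular matrix, stood at 25.5, 19.9 and 21.1 CPM in the eIF3m libraries and at 36.0, 35.1 and 30.4 CPM in the controls. It fell by 0.56 ± 0.11 SE (adjusted p = 8.41e-04), and by 0.69 ± 0.13 without replicate 1. Cd14, a co-receptor for bacterial lipopolysaccharide, stood at 20.1, 18.1 and 18.8 CPM in the eIF3m libraries and at 26.8, 25.3 and 29.0 CPM in the controls (-0.49 ± 0.10 SE, adjusted p = 0.00163). In all 3 genes the groups did not overlap, and replicate 1 lay with its own group. How many of all genes had groups without overlap was not counted. The 3 lower calls among 13 tested members are near the 21.2% of all genes tested, so they do not set the members apart. Cd14 did not pass in libraries thinned to equal depth (-0.35 ± 0.18 SE, adjusted p = 0.158).

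Ahsp and Cd68 did not pass in either direction. Ahsp was at 0.67 ± 0.44 SE (adjusted p = 0.256). Cd68, a lysosomal glycoprotein rich in macrophages, had 20, 2 and 10 counts in the eIF3m libraries and 14, 8 and 10 in the controls. Its log2 fold change was 0.08 ± 0.42 SE (adjusted p = 0.909), and replicate 1 lay within the range of the other libraries in CPM.

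**Figure D4:**
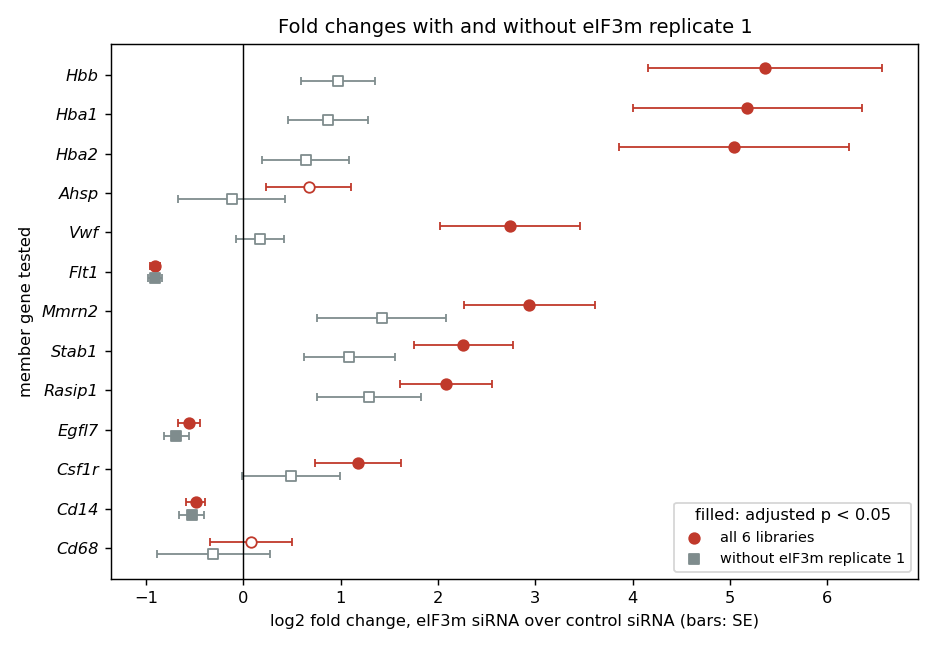
Log2 fold change (eIF3m siRNA over control siRNA, bars are SE) of the 13 members tested, with all 6 libraries (circles) and without eIF3m replicate 1 (squares), filled where the adjusted p is under 0.05. All 8 calls toward higher values become open squares, while Flt1, Egfl7 and Cd14 stay filled and below 0.

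As summed CPM, the 6 erythroid members stood at 6205, 230.5 and 51.8 in eIF3m replicates 1, 2 and 3, and at 73.6, 79.2 and 32.6 in the controls. The 13 endothelial members stood at 266.4, 96.7 and 88.1 in the eIF3m libraries and at 147.4, 143.7 and 136.1 in the controls. The 12 leukocyte members stood at 71.6, 23.0 and 23.4 in the eIF3m libraries and at 31.8, 29.5 and 32.1 in the controls. In the last 2 classes the sums of eIF3m replicates 2 and 3 lay below those of the controls, where Flt1, Egfl7 and Cd14 made up most of the sum.

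Some of the other markers of these cell types were also higher in eIF3m replicate 1. Among genes with at least 10 counts in the other 5 libraries, 3 of 12 further erythroid, 4 of 12 further endothelial, 0 of 9 further macrophage and 0 of 1 MHC class II genes were at least 2 times the highest other library, against 1.11% of all such genes. Among genes with at least 10 counts in all 6 libraries together the counts were 11 of 20, 19 of 27, 6 of 15 and 4 of 5, but a gene that reaches 10 counts through replicate 1 alone passes by construction. With the other libraries set to at least 3 counts they were 4, 13, 1 and 1. Tal1 is in both of the first 2 lists. Plvap, a protein of endothelial fenestrae, had 115, 0 and 1 counts in the eIF3m libraries and 1, 1 and 0 in the controls. Cdh5, the cadherin of endothelial junctions, Fli1, an ETS factor, Clec14a, Sox18 and Sox7 had 30, 30, 20, 15 and 11 counts in replicate 1 and 0 in each of the other 5. Hemgn, Rhd and Hbq1b of the erythroid list had 21, 17 and 11 counts there and 0 elsewhere, and Laptm5 and Cd53, markers of blood cells, 25 and 11 counts and 0 elsewhere. Against the floor of 3 counts in the shallow eIF3m replicate 2, the bounds were 2.15 for Cdh5 and Fli1. They were only 1.08 to 1.80 for Clec14a, Sox18, Hemgn, Rhd and Laptm5. For Sox7, Hbq1b and Cd53, at 0.79, no difference from that library was detectable. Coro1a, an actin regulator of leukocytes, had 67 counts in replicate 1 and at most 1 in any other library. Mpeg1, a pore-forming protein of macrophages, had 15, 1 and 7 counts in the eIF3m libraries and 6, 6 and 3 in the controls, and replicate 1 was 1.68 times the next library (0.616 to 5.29).

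The group comparison tested few genes of these lists. Toward higher and lower values, 3 and 1 of 9 tested further erythroid genes passed, 3 and 1 of 7 endothelial and 0 and 2 of 4 macrophage genes, against 17.4% and 21.2% of all genes tested. Without eIF3m replicate 1 the counts were 2 and 0 of 9, 2 and 2 of 7, and 0 and 2 of 4, against 15.0% and 19.1%. No MHC class II gene was tested. RT1-Da had 59, 1 and 1 counts in the eIF3m libraries and 2, 0 and 1 in the controls.

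Markers of other blood and stromal cells were looked at in the same way. Among genes with at least 10 counts in the other 5 libraries, 2 of 3 platelet and megakaryocyte, 1 of 3 lymphoid, 6 of 12 fibroblast, 0 of 4 lymphatic endothelial, 0 of 1 granulocyte and mast cell and 1 of 1 adipocyte genes were at least 2 times the highest other library. Pf4, platelet factor 4, had 102, 1 and 1 counts in the eIF3m libraries and 4, 1 and 0 in the controls. Itga2b, the platelet integrin, had 149, 3 and 16 counts in the eIF3m libraries and 13, 12 and 8 in the controls. The 1 lymphoid gene was Lck, with 12, 0 and 4 counts in the eIF3m libraries and 3, 2 and 3 in the controls. Its ratio to the next library was 2.38 with an interval that included 1 (0.721 to 10.1), so the lymphoid list did not clearly stand out. Cd4, outside that filter, had 28, 0 and 3 counts in the eIF3m libraries and 0, 1 and 0 in the controls. Cd3e had 8 counts in eIF3m replicate 1, against 3 in each of eIF3m replicates 2 and 3 and 6 to 7 in the controls. Of the fibroblast genes, Dcn, a matrix proteoglycan, stood at 55.3, 2.21 and 1.80 CPM in the eIF3m libraries and 0.991, 1.28 and 0.984 CPM in the controls. In the group comparison 7 of 10 tested fibroblast genes passed toward higher and 1 toward lower values, against 17.4% and 21.2% of all genes tested. Without eIF3m replicate 1 it was 4 and 3, against 15.0% and 19.1%. Of the lymphatic genes, Mmrn1 had 48, 0 and 2 counts in the eIF3m libraries and 0 in each control, while Prox1, the lymphatic transcription factor, had 9, 2 and 3 counts in the eIF3m libraries and 11, 6 and 4 in the controls.

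Markers of several other tissues did not stand out by the 2-fold rule. With at least 10 counts in the other 5 libraries, 0 of 14 cardiac muscle, 0 of 11 pericyte and smooth muscle, 0 of 5 epicardial or mesothelial, 0 of 3 Schwann cell or neural, 0 of 2 liver or yolk sac and 0 of 12 housekeeping genes were at least 2 times the highest other library. Rgs5, a pericyte gene outside that filter, had 20, 1 and 1 counts in the eIF3m libraries and 0 in the controls. No epithelial marker had 10 counts in total. In the group comparison 2 and 7 of 10 tested pericyte and smooth muscle genes passed toward higher and lower values. It was 0 and 3 of 5 cardiac genes and 1 and 5 of 11 housekeeping genes, against 17.4% and 21.2% of all genes tested. For a gene lower in the eIF3m group the highest other library is a control, and the 2-fold rule is harder to meet. A 0 therefore says little about such genes in eIF3m replicate 1. The embryonic and fetal globin genes Hbe1, Hbe2, Hbg1 and Hbz, named here after their values were seen, had 0 counts in eIF3m replicate 1, where 3 counts correspond to 0.285 CPM. Gata1, the erythroid transcription factor, and Alb, serum albumin, had 0 counts in all 6 libraries.

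**Figure D5:**
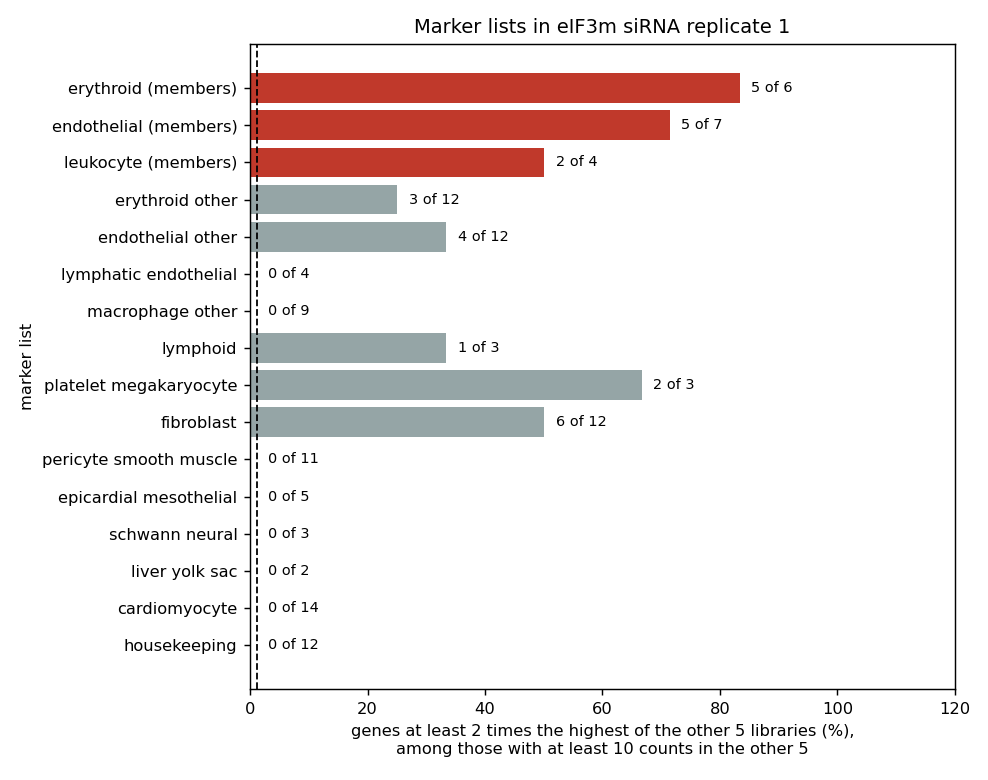
Percent of the genes of each marker list, among those with at least 10 counts in the other 5 libraries, that were at least 2 times the highest of these in eIF3m siRNA replicate 1, with the numbers beside each bar (lists with 1 such gene or none are left out). The dashed line is the 1.11% of all such genes. The erythroid, endothelial, leukocyte, lymphoid, platelet and fibroblast lists lie above it, and the further macrophage, lymphatic, pericyte, cardiac, epicardial, neural, liver and housekeeping lists are at 0. The lymphoid bar rests on 1 gene, Lck, whose counting interval of the ratio includes 1 (0.721 to 10.1).

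Genes of the Y chromosome were seen in that library alone. Eif2s3y and Kdm5d, both Y-linked, had 18 and 17 counts in eIF3m replicate 1 and 0 in each of the other 5 libraries, and Ddx3y had 1 and 0. A count of 0 allows up to 3 counts, which is 0.360 to 1.32 CPM in the other 5 libraries, against 1.71 and 1.62 CPM measured for these genes. Whether these transcripts and the members share a source was not tested.

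Outside all lists, genes with at least 100 counts in eIF3m replicate 1 were ranked by their ratio, with placeholder symbols such as LOC entries left out. The 10 that most set that library apart were Thbd, Clec3b, Gda, Fgl2, Cytl1, Hba-a1, Adgrf5, Fam46c, Col14a1 and C7. Thbd encodes thrombomodulin, the thrombin receptor of endothelium. It had 112, 0 and 1 counts in the eIF3m libraries and 1 in each control. Hba-a1, a further alpha globin entry, had 150, 1 and 2 counts in the eIF3m libraries and 2 in each control. C7, a late complement component, had 672, 7 and 1 counts in the eIF3m libraries and 5, 11 and 5 in the controls. Their ratios to the next library ranged from 20.7 to 75.3.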

How the data were processed

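RNA was sequenced in 6 rat libraries, 3 for each siRNA. The authors deposited a whole-number count for every gene symbol and library, not normalised. Trimmomatic 0.40, HISAT2 2.2.1, featureCounts, DESeq2, limma and the build rn6 are listed, per the submitters' processing notes. Settings for annotation, strand and multi-mapped reads were not given in the sources used here; the share of Hba1 and Hba2 is uncertain for that reason. A SMARTER mRNA kit is named per the labels' protocols, beside a text on a differentiation medium that may or may not concern these cells. In each file 27 symbols turned into dates were left out (0.203% to 0.216% of counts).

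Groups and replicate numbers come from the sample titles. The test was edgeR 4.0.16 in R 4.3.3: filterByExpr (minimum count 10, minimum total 15), TMM scaling and a two-sided quasi-likelihood F-test without covariates, with Benjamini-Hochberg adjustment over 12724 genes. Log2 fold changes are eIF3m over control. Their SE is the absolute log2 fold change divided by the square root of the F statistic, so it is derived from the test. Setting eIF3m replicate 1 against each other library used CPM and no test. Ratios carry exact binomial 95% counting intervals, and the floor is 3 counts, or 0.285 to 1.32 CPM by library. Libraries of a group differed by more than sampling noise.

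Members and marker lists were chosen with earlier results of these data known. Named are all members, Eif3m, list genes by their ratio (at most 6 a list, at least 10 counts in replicate 1) and 10 unlisted genes. The unlisted genes had the largest ratios once placeholder symbols (LOC, RGD, AABR and AC numbers) were left out. Where all others were at 0, genes were ordered by count. Others were named after their values were seen. Symbols of 29 members matched RefSeq (GRCr8), used for promoters alone. Alternatives were DESeq2 1.42.0, other scaling, filter, dispersion and depth, a replicate block and each library left out.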

Additional observations from a re-analysis of the deposited data

How the results depend on the processing

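The 3 calls toward lower values (Flt1, Egfl7 and Cd14) kept their direction and their side of the threshold under every alternative run, except that Cd14 missed it in thinned libraries, which left 2. The 8 calls toward higher values became 24 of 31 with no filter, where 2447 of 22068 genes were called higher. In that fit the SE of Hbb was 0.06, against 1.20, and members with counts in eIF3m replicate 1 alone, such as C1qa, were called. These 24 calls thus cannot be read as a difference between the groups. The DESeq2 Wald test called 3 (1585 of 12724 genes) and gave no p, unadjusted or adjusted, for 4 of the 13. Robust dispersion gave 2 (2292 of 12724 genes), and thinned libraries 4 of the 7 tested (1308 of 10747 genes). Leaving out 1 library gave 0 to 10 higher calls among the members. The 0 was without eIF3m replicate 1, and DESeq2 without that library, an alternative chosen after the data were seen, also gave 0. Over all genes, 2220 higher calls became 4163 and 2700 lower calls 1680 with no scaling factors, where the median of all genes moved to 0.16 on the log2 scale and higher calls made up 71.2% of all, against 45.1%. In thinned libraries 1308 were higher, and 1108 with DESeq2 without eIF3m replicate 1. Leaving out 1 library gave 1692 to 2113 higher and 2336 to 2641 lower calls. At least 2 times the highest other library were 26 of the 31 members with no scaling factors or DESeq2 size factors too, 18 of 22 in thinned libraries (2.06% of all genes), and 16 of 21 where at least 50 counts in total were asked (1.32% of all genes). Under 2 alternatives chosen after the data were seen it was 17 with the other libraries set to at least 3 counts, and 12 of 17 among members with at least 10 counts outside eIF3m replicate 1. Ahsp ranged from -0.12 without eIF3m replicate 1 to 1.00, and Cd68 from -0.31 to 0.37 (-0.12 and -0.03 without control replicates 2 and 3). The cause of these shifts was not tested. The replicate numbers mark no shared culture in the labels, and same-numbered libraries did not deviate together (r = 0.0304, -0.00543 and 0.00765). With a replicate block, 8 members were higher and 3 lower, and 2123 and 2632 of all genes; Cd68 was at -0.07. The depth of eIF3m replicate 2, where 3 counts are 1.32 CPM, limits what can be said of the sparse leukocyte and endothelial members.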
